A study of Brassica napus with 6 samples.

Results

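The genes of mitochondrial leucine breakdown and of the electron-transfer flavoprotein, 7 in all, were followed in roots of oilseed rape (Brassica napus, cultivar Nourin No.16) after glutathione had been brushed onto the leaves. They were IVD, MCCA, MCCB, the HMG-CoA lyase gene AT2G26800, ETFALPHA, ETFBETA and ETFQO, out of the 13350 genes named through the array annotation. The genes were chosen by pathway, with the difference between treated and control roots in these arrays already known. That difference is therefore given as a description for these 7 genes, with no test. Each of the 7 matched 1 probe that the annotation pairs with a single gene. The platform is an Arabidopsis array, so rape transcripts were read through probes designed for a related species, and several rape copies of a gene may share a probe.

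Both groups were 4-week-old plants grown in aerated nutrient solution with 4 seedlings per container, and root RNA was hybridised to 6 single-colour arrays. In the foliar GSH group (n = 3) reduced glutathione, a tripeptide thiol, was painted for 4 days onto 3 expanded leaves per plant, at 50 µL of a 100 mM solution per leaf in MES-KOH buffer with Triton X-100. The control group (n = 3) was left untreated, and no buffer application is described for it. An effect of glutathione and one of the buffer or the brushing therefore cannot be told apart. The labels call the arrays of a group biological replicates and do not say how many plants each one held. In bulk roots, fewer cells of a type and less RNA per cell cannot be told apart.

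Leucine is broken down in plant mitochondria in a short chain of reactions. Isovaleryl-CoA dehydrogenase (IVD) oxidises isovaleryl-CoA, the biotin enzyme 3-methylcrotonyl-CoA carboxylase (MCCA and MCCB subunits) adds a carboxyl group to the product, and HMG-CoA lyase finally releases acetyl-CoA and acetoacetate. Electrons taken by IVD pass to the electron-transfer flavoprotein (ETFALPHA and ETFBETA subunits) and from there, through the membrane oxidoreductase ETFQO, to ubiquinone and the respiratory chain. In Arabidopsis this route is known for letting amino acids feed respiration when sugars run short, as in prolonged darkness. These roles come from Arabidopsis and were not measured here.

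The scale of the deposited values limits what can be said about size. Arrays shared a median signal of 5.84 and quartiles of 5.67 and 6.06 on a log-like scale whose base is not given in the sources used here. Across the 6 arrays a probe ranged over a median of only 1.91 millionths of a unit, and the step that made the arrays so alike is not given either. All differences below are therefore in millionths of a deposited unit, as distances from the mean of the 3 controls, and they are not fold changes. Array medians differed among themselves by up to 1.65 millionths, so a difference of that order cannot be told apart from the level of an array. Sizes cannot be compared between probes. By limma, 0 of 22746 probes (0%) passed a Benjamini-Hochberg adjusted p of 0.05, against 1535 probes (6.75%) at an unadjusted p under 0.05. A test of each probe without shared variance also called 0 after adjustment and 1012 before it.

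The genes of isovaleryl-CoA oxidation and of the carboxylase had higher deposited values in GSH-treated roots. IVD, MCCA and MCCB had differences of 123, 71.6 and 47.1 millionths, and in each of them all GSH arrays lay above all controls. Quantile normalization set all 3 differences to 0, because each of these probes kept its rank on every array. The HMG-CoA lyase gene, at the end of the chain, showed no such separation. The genes of the electron-transfer flavoprotein and of ETFQO differed by less than 1 millionth each, below the differences between array medians. Of the 7 genes, 6 had a higher mean after GSH and 1 a lower mean, beside 51.9% of all probes with a higher mean. All GSH arrays lay above all controls at 4 of the 7 genes and below at 0, beside 5.63% of all probes above and 5.75% below. After median centring the count above was 3 of the 7, IVD, MCCA and MCCB, beside 7.97% of all probes. Since the genes were chosen with this contrast known, nothing is read from these shares.

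**Figure D1:**
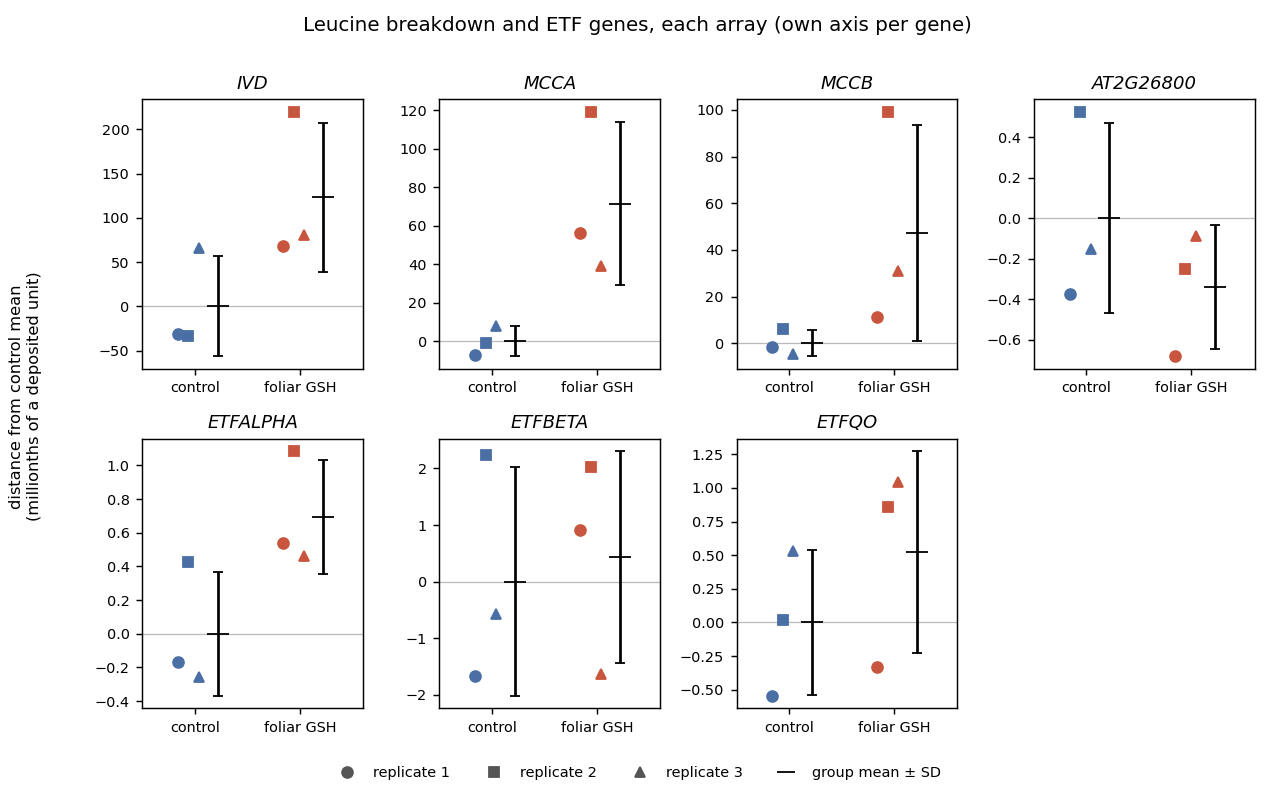
Distance of each array from the control mean, in millionths of a deposited unit, for the 7 genes; points are arrays, bars are the group mean ± SD (n = 3), and each gene has its own axis. GSH replicate 2 is the highest array for IVD, MCCA, MCCB and ETFALPHA, and the groups overlap for AT2G26800, ETFBETA and ETFQO.

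IVD opens the pathway considered here, and its probe was bright, with a mean signal of 7.73 against an array upper quartile of 6.06. Control replicates 1, 2 and 3 lay at -31.8, -33.7 and 65.5 millionths. The GSH replicates lay at 68.5, 220.0 and 80.8 millionths. Control replicate 3 came within 2.97 millionths of the lowest GSH array, so the groups only just separated, and GSH replicate 2 stood far above the other two. The mean difference was 123 millionths (SE of the limma fit 53.3), which is 1.72 times the SD within groups of 71.8. Without GSH replicate 2 the difference was 74.7 millionths, and without control replicate 3 it was 156.

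MCCA, the biotin-carrying subunit of the carboxylase, had the widest separation of the 7 genes relative to its own spread. Its controls lay at -7.25, -1.02 and 8.27 millionths (SD 7.81, n = 3). Its GSH arrays lay at 56.4, 119 and 39.0 millionths (SD 42.3, n = 3), again with replicate 2 on top. The lowest GSH array was 30.8 millionths above the highest control. The difference of 71.6 millionths (SE 22.6) was 2.35 times the SD within groups, and it was 47.7 without GSH replicate 2.

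MCCB, which carries the carboxyl transfer site of the same enzyme, showed a like order of arrays with a narrower gap. Control values were -1.63, 6.29 and -4.66 millionths, and GSH values were 11.1, 99.2 and 31.0 millionths. Replicate 1 of the GSH group lay only 4.85 millionths above control replicate 2, and replicate 2 carried most of the mean. The difference of 47.1 millionths (SE 24.5) was 1.43 times the SD within groups. It came down to 21.1 without GSH replicate 2 and reached 65.1 without GSH replicate 1.

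Spread set these 3 genes apart from the other 4 on the arrays. The range over 6 arrays was 254 millionths for IVD, 127 for MCCA and 104 for MCCB, wider than at 99.6%, 99.3% and 99.1% of all probes. For AT2G26800, ETFALPHA, ETFBETA and ETFQO the range was 1.21, 1.34, 3.91 and 1.59 millionths, within the range of ordinary probes. Brightness went with spread only loosely, with a Spearman correlation of 0.247 between mean signal and range across 22746 probes, which are not independent replicates. AT2G26800 and ETFQO had signals above the array upper quartile and still had narrow ranges. Whether the step that shaped the deposited spread acted on probes differently was not tested.

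AT2G26800, listed as the HMG-CoA lyase of the last step, was the only one of the 7 with a lower mean after GSH. Its controls lay at -0.374, 0.525 and -0.151 millionths and its GSH arrays at -0.682, -0.251 and -0.0890 millionths, so the groups overlapped. The difference was -0.341 millionths (SE 0.318), or -0.861 times the SD within groups. Centring each array on its median turned it to 0.257 millionths, so no direction can be given.

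The electron-transfer flavoprotein is a dimer of an alpha and a beta subunit. ETFALPHA controls lay at -0.168, 0.424 and -0.255 millionths, and its GSH arrays at 0.540, 1.08 and 0.463 millionths. Here the groups separated, but by only 0.0390 millionths, while array medians differed by up to 1.65. The difference was 0.696 millionths (SE 0.290), which is 1.96 times the SD within groups. It became 1.29 with each array centred on its median, where the groups overlapped, and -2.08 after quantile normalization, so no direction can be given.

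ETFBETA, the other subunit, gave control values of -1.67, 2.24 and -0.567 millionths and GSH values of 0.915, 2.02 and -1.62 millionths. The groups overlapped across nearly their whole range, and the highest array was control replicate 2. Its difference of 0.436 millionths (SE 1.45) was 0.224 times the SD within groups, and it turned to -0.401 without control replicate 1 and to -0.354 without GSH replicate 2. Without control replicate 2 it was 1.56, and median centring gave 1.03. The ETFBETA probe, with a mean signal of 5.82, was the only one of the 7 below the array median of 5.84, and all 7 were above the lower quartile of 5.67.

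ETFQO, which hands the electrons to ubiquinone, lay at -0.547, 0.0190 and 0.528 millionths in the controls. Its GSH values were -0.333, 0.860 and 1.05 millionths. GSH replicates 2 and 3 were above every control, whereas GSH replicate 1 was below control replicates 2 and 3. The difference was 0.524 millionths (SE 0.499), or 0.805 times the SD within groups. It ran from 0.251 without control replicate 1 to 0.953 without GSH replicate 1, and median centring gave 1.12.

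**Figure D2:**
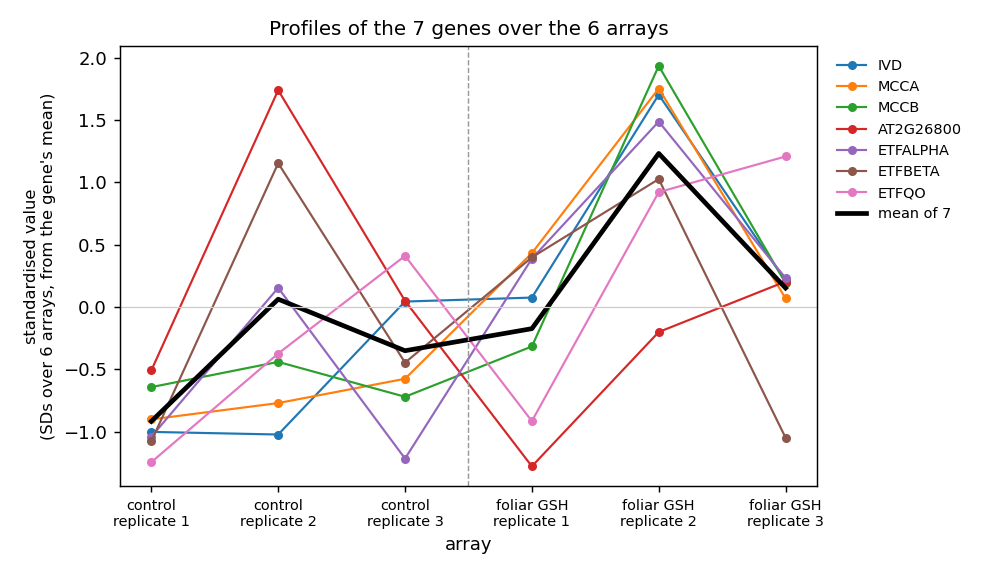
Each gene's 6 values after subtracting its mean and dividing by its SD over the 6 arrays; coloured lines join the points of a gene, the black line is the mean of the 7 genes, and the dashed line divides control from GSH arrays. The mean profile is highest at GSH replicate 2 (1.23 SDs) and lowest at control replicate 1 (-0.92 SDs).

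IVD, MCCA and MCCB varied together over the arrays. IVD and MCCA had a Pearson correlation of 0.94 over 6 arrays (Spearman 0.89), MCCA and MCCB one of 0.92 (Spearman 0.77), and IVD and MCCB one of 0.87 (Spearman 0.77). After the group means were subtracted, these Pearson correlations were 0.88, 0.88 and 0.77. That step removes the mean difference between groups but not an unequal spread within them. SDs within the GSH and control groups were 84.1 and 56.8 millionths for IVD, 42.3 and 7.81 for MCCA, and 46.2 and 5.65 for MCCB. Without the 2 arrays farthest from the median of the gene named first, the Pearson correlations of the deposited values were 0.75, 0.88 and 0.54. The points share their arrays and hence any array-wide deviation, and no p is given because the genes were chosen with these values known.

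The flavoprotein subunits were also set beside the carboxylase genes. ETFALPHA correlated at 0.86 with MCCA and 0.85 with MCCB, and ETFBETA at 0.45 and 0.43 with the same genes. After the group means were subtracted, the values were 0.63 and 0.72 for ETFALPHA and 0.59 and 0.46 for ETFBETA. Without the 2 arrays farthest from the MCCA or MCCB median, the deposited values gave 0.52 and 0.98 for ETFALPHA. For ETFBETA they gave -0.37 and 0.73. The difference between the subunits was not tested. The whole range of ETFALPHA, 1.34 millionths, was below the 1.65 by which array medians differed. ETFALPHA and ETFBETA correlated at 0.66 with each other, and at 0.87 after the group means were subtracted. AT2G26800 had correlations of -0.33, -0.36 and -0.08 with IVD, MCCA and MCCB, and of 0.0085, 0.046 and 0.34 after the group means were subtracted. Over all 21 pairs of the 7 genes, 17 Pearson and 16 Spearman correlations were above 0. After the group means were subtracted, 20 Pearson correlations were above 0. The pairs share genes and arrays, and the share above 0 among pairs of other probes was not computed.

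One array weighed on most of these values. GSH replicate 2 was the highest array at 4 of the 7 genes, against 15.3% of all probes, and control replicate 1 was the lowest at 3 of the 7, against 16.5% of all probes. With GSH replicate 2 left out, 4 of the 7 genes had all remaining GSH arrays above all controls, where 11.1% of all probes did. Leaving out an array cannot undo such a separation, so this count could not fall and nothing is read from it. Without GSH replicate 2, IVD, MCCA and MCCB differed by 74.7, 47.7 and 21.1 millionths, each at least 1.5 times smaller than with all arrays. What made GSH replicate 2 stand out at these genes was not tested.

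**Figure D3:**
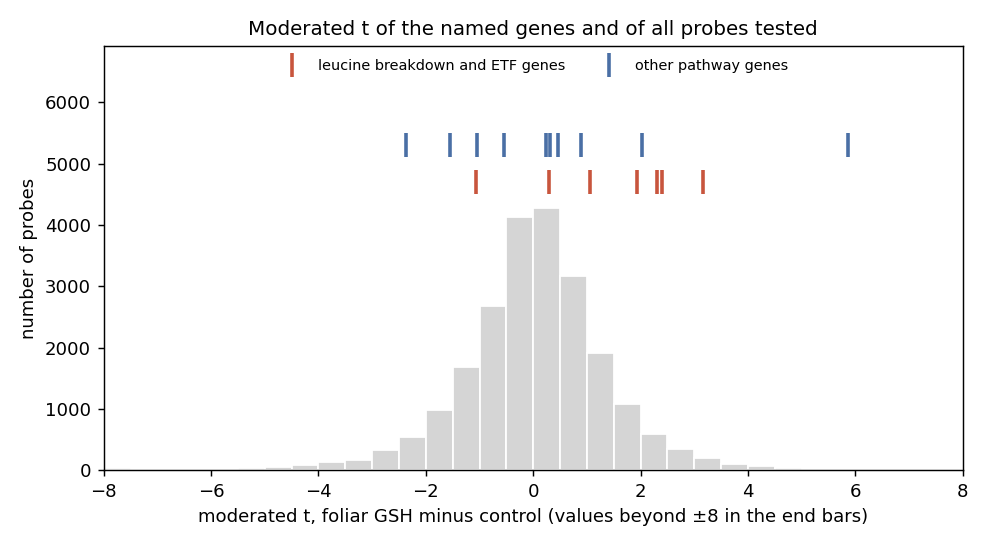
Grey bars count all 22746 probes by moderated t (foliar GSH minus control); red ticks are the 7 leucine breakdown and flavoprotein genes and blue ticks the 10 other measured genes of branched-chain and lysine breakdown. The red ticks run from -1.07 to 3.17, and the blue ticks from -2.36 to 5.86.

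The moderated t is the difference divided by its limma standard error, and it takes no account of differences between array medians. It was 3.17 for MCCA, 2.40 for ETFALPHA, 2.31 for IVD and 1.93 for MCCB, then 1.05 for ETFQO, 0.301 for ETFBETA and -1.07 for AT2G26800. The median of the 7 was 1.93, beside 0.0472 over all probes. These values describe genes picked on the same contrast and carry no test.

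Other genes of branched-chain and lysine breakdown differed in sign. Of 21 further genes of branched-chain amino acid and lysine breakdown, 10 had a probe with a single gene. Of these 10, 6 had a higher and 4 a lower mean after GSH, beside 51.9% of all probes with a higher mean. Nothing is read from this split. With single arrays left out, 4 to 6 had a higher mean, and ATBCAT-5, AT5G09300, D2HGDH and AT4G20930 turned sign. Their median t was 0.27, beside 0.0472 over all probes, and they were not tested against the 7 genes. By limma 0 of the 10 passed after adjustment over all probes, with adjusted p from 0.447 to 1.00, and 1 had an unadjusted p under 0.05, beside 6.75% of all probes. The test of each probe without shared variance gave the same counts of 0 and 1. Of the branched-chain keto acid dehydrogenase, the step just before IVD, 1 E1 alpha gene was measured, and the other E1 alpha gene and the E1 beta, E2 and E3 genes were not analysed here because no single-gene probe was matched to them.

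The gene with the small unadjusted p was ALDH7B4, an aldehyde dehydrogenase of lysine breakdown that is known as a stress-responsive gene in Arabidopsis. Its controls lay at 7.18, 18.7 and -25.9 millionths, and its GSH arrays at 83.5, 130 and 95.4 millionths. The GSH arrays thus lay at least 64.8 millionths above every control. All GSH arrays lay above all controls at 1 of the 10 genes, beside 5.63% of all probes. Its difference of 103 millionths (SE 17.6) did not pass over all probes (limma adjusted p = 0.447), and it ran from 89.5 to 113 with single arrays left out. Like IVD, MCCA and MCCB, ALDH7B4 was highest in GSH replicate 2 and had a range, of 156 millionths, among the widest on the arrays.

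Valine is broken down by its own set of later enzymes, and none of their measured genes had separated groups. ALDH6B2, the methylmalonate semialdehyde dehydrogenase, lay at 7.49, -16.8 and 9.34 millionths in controls and at 4.68, 32.5 and 32.0 millionths after GSH. GSH replicate 1 fell among the controls, and the difference was 23.1 millionths (SE 11.4, limma adjusted p = 0.828). AT4G31810, listed as 3-hydroxyisobutyryl-CoA hydrolase like, differed by -2.15 millionths (SE 0.912, limma adjusted p = 0.773). AT4G20930, listed as 3-hydroxyisobutyrate dehydrogenase, differed by -1.82 millionths (SE 3.33) and turned to 0.722 without GSH replicate 2. The differences of AT4G31810 and AT4G20930 were of the order of those between array medians, up to 1.65 millionths, so no direction is given for either gene.

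The entry of the pathway was read only in part. The aminotransferases take the amino group off the branched-chain amino acids, and 3 of 7 were measured. No single-gene probe was matched to BCAT1, BCAT2, BCAT3 and BCAT7. Whether any of the 3 measured genes serves leucine breakdown in mitochondria was not tested. BCAT4, which in Arabidopsis serves methionine chain elongation for glucosinolates, differed by 1.81 millionths (SE 2.03), with overlapping groups. ATBCAT-5 and AT1G50110 differed by 0.0837 (SE 0.184) and -0.780 millionths (SE 0.505). The measured keto acid dehydrogenase gene, AT5G09300 for an E1 alpha subunit, differed by 0.0857 millionths (SE 0.371).

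D-2-hydroxyglutarate dehydrogenase is another enzyme that passes electrons to the electron-transfer flavoprotein in Arabidopsis. Its gene D2HGDH differed by 0.0470 millionths (SE 0.152), with overlapping groups. AT4G33150, listed as the first enzyme of lysine breakdown, differed by -2.99 millionths (SE 2.85), and its lowest array was GSH replicate 2 at -8.80 millionths. The signal of its probe averaged 5.60, which is under the array lower quartile.

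**Figure D4:**
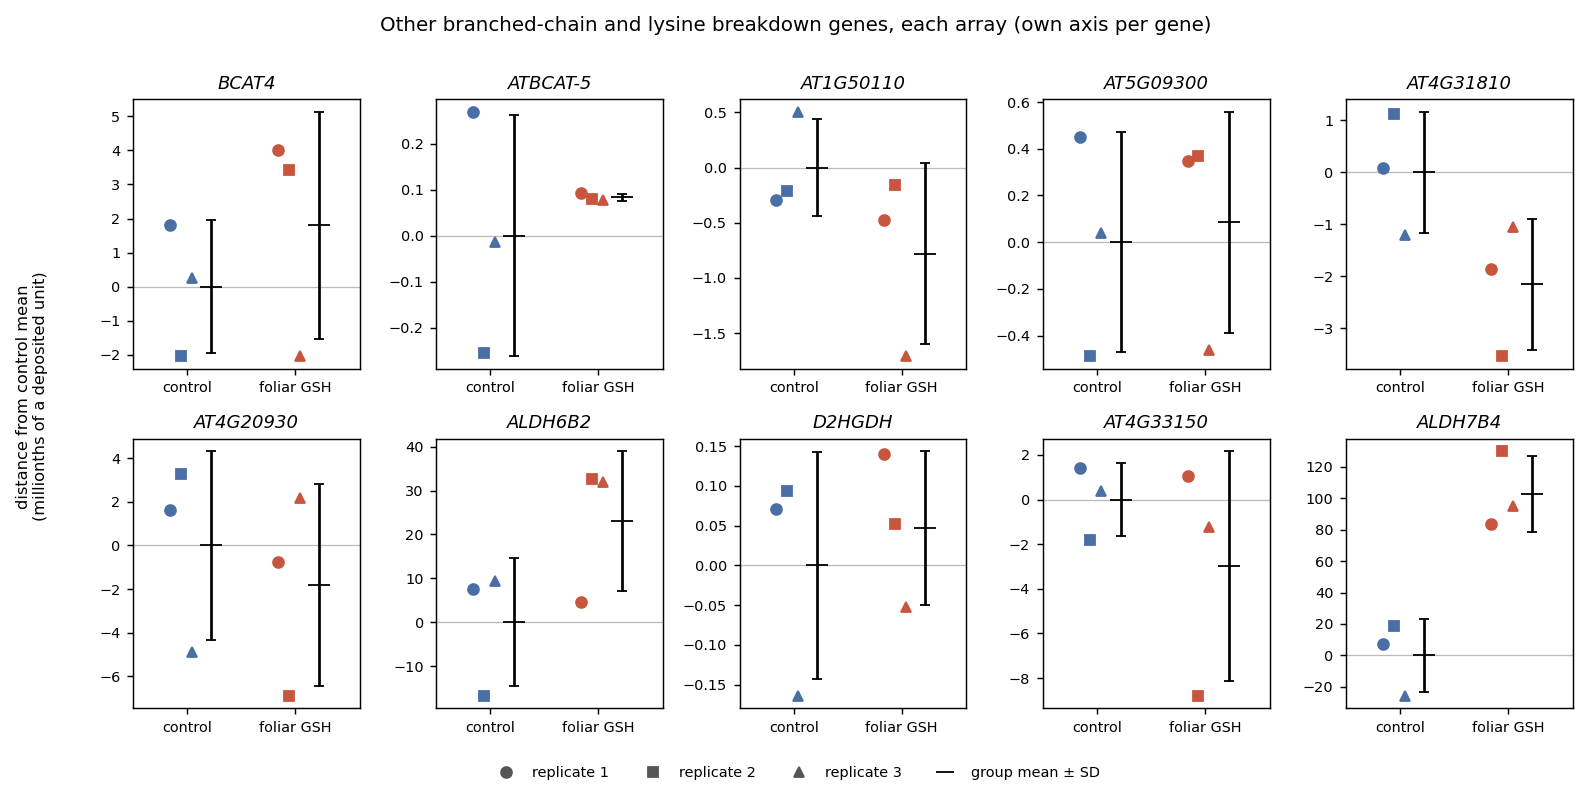
Distance of each array from the control mean, in millionths of a deposited unit, for the 10 other measured genes of branched-chain and lysine breakdown; points are arrays, bars are the group mean ± SD (n = 3), and each gene has its own axis. ALDH7B4 is the 1 gene of the 10 whose groups do not overlap. Of all probes, 5.63% had all GSH arrays above all controls and 5.75% had them below.

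Leucine breakdown genes belong in Arabidopsis to a larger set induced by darkness and low energy, so that set was read alongside. Only 3 of its 21 listed genes could be matched to a single-gene probe. With all arrays these 3 had a higher mean after GSH, with overlapping groups, beside 51.9% of all probes with a higher mean. AKINBETA1, a regulatory subunit of the energy-sensing kinase SnRK1, differed by 4.00 millionths (SE 3.25), and by 1.19 without GSH replicate 2. ATG8E, an autophagy protein gene, differed by 4.94 millionths (SE 2.58). BZIP53, a transcription factor gene, differed by 0.723 millionths (SE 1.26) from a dim probe whose signal averaged 5.55, and by -0.203 without GSH replicate 2. By limma 0 of the 3 passed (adjusted p from 0.847 to 1.00) and 0 had an unadjusted p under 0.05. Markers of tissue were few, with 2 of 15 root genes and 2 of 12 leaf genes measured, so they do not check the labelled tissue. Of the root hair expansin genes, EXPA7 gave a difference of -27.3 millionths with an SE of 20.8, and EXPA18 one of -2.12 with an SE of 5.12. The leaf genes RCA and LHCB4.1 gave -0.0573 with an SE of 0.148 and 0.280 with an SE of 0.187. Their part in the values of the leucine breakdown genes was not tested.

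The profiles most like the mean profile of the 7 genes belonged to genes of no listed pathway. By Pearson correlation over the 6 arrays these were WRKY20 (0.98), MAP1B (0.98), AT1G71710 (0.98), AT5G36990 (0.98), AT2G43590 (0.97) and OTP85 (0.97). With 6 arrays such values are easily reached, and 86 of 13506 other single-gene probes (0.637%) were above 0.90. The genes themselves correlated with their own mean at 0.92 for MCCB, 0.90 for ETFALPHA, 0.86 for MCCA and 0.83 for IVD. For ETFQO, ETFBETA and AT2G26800 the values were 0.69, 0.63 and 0.16. Each of the 7 genes is part of that mean, which raises its correlation, so these values cannot be set beside those of other probes. MAP1B, AT1G71710, AT5G36990 and OTP85 were read from probes under the lower quartile. WRKY20 differed between groups by 0.617 millionths (SE 0.407, limma adjusted p = 0.910), and its groups overlapped.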

How the data were processed

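The table deposited by the authors holds log2-like values (5.09 to 12.9) of 22810 probes on 6 arrays, and no further normalization was applied. The submitters' processing notes name R 2.7.2. How background was corrected, probes summarised and arrays normalized, and the base of the logarithm, is not given in the sources used here, and log2 was inferred from the range of the values. Labelling with biotin started from 100 ng of total RNA, per the labels' protocols. After leaving out 64 array control probes, 22746 were tested, 13513 of them paired with 1 gene, 503 with several and 8730 unnamed here.

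The comparison of GSH with control used limma 3.58.1 under R 4.3.3, with lmFit and eBayes, two-sided, adjusted by Benjamini-Hochberg over all probes at 0.05, with no filter on dim probes. With 3 arrays against 3, an exact permutation test cannot go below 0.1 and was not run. A gene was read from its probe with the highest mean. The genes and lists were chosen with earlier results of these data known. Named genes were the 7, the measured genes of the lists, and the 6 profiles closest to the mean standardised profile. Alternatives were median centring, quantile normalization, leaving out each array, the replicate number as a block, brighter probes only, a trended and robust prior, a per-probe test, division by the probe SD, and averaging over a gene's probes. The fit was also run on simulated data with independent normal noise. Only the error of the computed differences was held to a limit there, and no result here rests on that run. Depth does not apply to arrays, whose number limits the precision.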

Additional observations from a re-analysis of the deposited data

How the results depend on the processing

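The number of probes called by limma was 0, and it was 27 after quantile normalization, 4 among probes at or above the median signal and 1, which was lower after GSH, in the fit with a replicate block. Quantile normalization left only 2690 probes with any difference between arrays. There 0 of the 7 genes had a higher mean, since IVD, MCCA, MCCB, AT2G26800 and ETFQO kept their rank on every array and were set to the same value. ETFBETA still varied, with a difference of 0, and ETFALPHA became -2.08 millionths. The count of other pathway genes called stayed at 0 under every alternative run, although quantile normalization and the limit to brighter probes tested only 4 of the 10 genes. The probes called stayed at 0 with single arrays left out, median centring, a trended and robust prior, the per-probe test and division by the SD.

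Of the 7 genes, 6 had a higher mean with all arrays, 5 to 6 with single arrays left out, 7 with median centring, which added 0.598 millionths to every difference, and 6 with the replicate block. The difference of AT2G26800 became 0.257 with centring and ETFALPHA became 1.29. Single arrays left out gave 74.7 to 156 for IVD, 47.7 to 87.9 for MCCA, 21.1 to 65.1 for MCCB, -0.528 to -0.0782 for AT2G26800, 0.501 to 0.908 for ETFALPHA, -0.401 to 1.56 for ETFBETA and 0.251 to 0.953 for ETFQO. ALDH7B4 had an adjusted p from 0.302 to 0.989 over 12 alternatives. Deviations of same-numbered arrays correlated at -0.45, -0.47 and -0.0063 as deposited, and at -0.02, -0.02 and 0.10 with each probe scaled to 1 SD, so the labels' replicate numbers are not shown to pair the arrays. Each gene had 1 probe, so the mean over probes changed nothing.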
